A study of Homo sapiens with 22 samples.

Results

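H3K27ac peaks of AN3CA cells carrying the delIDR1 truncation of ARID1A were set against those of cells carrying wild-type ARID1A (WT) on chromosomes 1 to 22, and a peak was shared when it overlapped a peak of the other list by 1 bp or more. The WT list held 49682 peaks and the delIDR1 list 30991, together 80673 of the 320830 H3K27ac peaks in the 7 H3K27ac libraries of the series. AN3CA is an established human endometrial carcinoma line. Each group was this line carrying 1 expression construct: wild-type ARID1A, the delIDR1 truncation, the ARID domain mutant DBDmut, the CBR truncation, a hybrid with the IDR of DDX4, or an empty vector (Empty), all under the same culture conditions. IDR is the field's short form for an intrinsically disordered region. The labels do not give the residues removed in delIDR1, the promoter of the constructs, the ARID1A of the parent line, the level of the expressed protein, or whether a line was a clone. WT and delIDR1 had 1 library per antibody and Empty had 2 replicates, so no difference between WT and delIDR1 has a replicate check and none was tested. No gene annotation or genome of the files' build, hg19, was used here, so peaks are given by position, without genes, no sequence is shown, and the cell type was not checked against marker genes.

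ARID1A belongs to canonical BAF, a SWI/SNF chromatin remodeller that uses ATP to move or evict nucleosomes and is found at many enhancers. SMARCA4 is an ATPase of that complex and SMARCC1 a core subunit on which it assembles. H3K27ac is acetylation of lysine 27 of histone H3, placed mainly by the acetyltransferases p300 and CBP at active enhancers and promoters. In CUT&Tag an antibody brings a transposase to its target in nuclei, and the fragments released there are sequenced.

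The H3K27ac libraries differed in estimated depth. A relative depth derived from the background of the peak statistics was 4.48 fragments per kb in WT, 3.59 in delIDR1, 4.40 in the first Empty replicate and 14.5 in the second. The lowest background itself was nearly equal in WT (0.646) and delIDR1 (0.649). Their estimates differ through the shortest peak by which it was divided, 144 bp in WT and 181 bp in delIDR1. Whether that width equals the fragment length was not tested. The Empty lists held 35429 and 90766 H3K27ac peaks on chromosomes 1 to 22. The SMARCA4 library had 1.53 fragments per kb in WT and 1.02 in delIDR1, and the SMARCC1 library 3.28 and 1.33. Peak names of WT, delIDR1 and Empty replicate 1 began with the same stamp and those of Empty replicate 2 with another, and the labels do not say what the stamp is. DBDmut and CBR had the stamp of WT, while DDX4 had a stamp of its own and 6.05 fragments per kb. The part of depth in the differences below was not tested.

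Most acetylated places of delIDR1 cells were also acetylated in WT cells, while nearly as many WT peaks lacked a counterpart in delIDR1 as had one. In the delIDR1 list 25073 peaks were shared (80.9%, Wilson 95% interval 80.5 to 81.3) and 5918 were delIDR1 only (19.1%). In the WT list 25736 peaks were shared (51.8%, 51.4 to 52.2) and 23946 were WT only (48.2%, 47.8 to 48.6). All intervals cover counting error only, since neighbouring peaks and PCR copies are not independent. Shared peaks paired almost singly: 25226 of the shared WT peaks met 1 delIDR1 peak and 510 met more. In bases, the shared stretches made up 51.7% of the WT peaks and 69.5% of the delIDR1 peaks. The overlap rule divided few close cases, with 863 shared WT peaks overlapping by less than 100 bp, and 255 WT only peaks with a delIDR1 peak less than 100 bp away. The Empty replicates, 2 libraries of the same construct whose lists differ more in length, gave more unequal shares: 78.4% of the peaks of replicate 1 were in replicate 2, and 24.4% of those of replicate 2 were in replicate 1.

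The lists were also compared at equal length, which sets aside their difference in number. With each list shortened to its 30991 strongest peaks by the authors' -log10 q, 9505 WT peaks (30.7%) and 9649 delIDR1 peaks (31.1%) had no counterpart. Lists of equal length that pair almost singly must have nearly equal unmatched counts, so this setting gives the extent of overlap and cannot show which construct had more peaks of its own. At that length 68.9% of delIDR1 peaks were in WT, with 52.6% and 55.4% found in the first and the second Empty replicate. Of WT peaks at that length, 54.4% and 57.1% were in these replicates, slightly more than of delIDR1. In the full lists the order was the other way, with 42.1% and 57.0% of WT peaks and 54.8% and 64.8% of delIDR1 peaks. The Empty replicates met each other in 76.6% and 60.1% of their peaks, and the overlap of WT with delIDR1, 69.3% and 68.9%, lay between those values. Among the 1000 strongest peaks of each list, 64.0% of those of delIDR1 were in WT, against 48.0% and 43.3% in the Empty replicates, while the Empty replicates met in 45.3% and 44.9%.

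**Figure D1:**
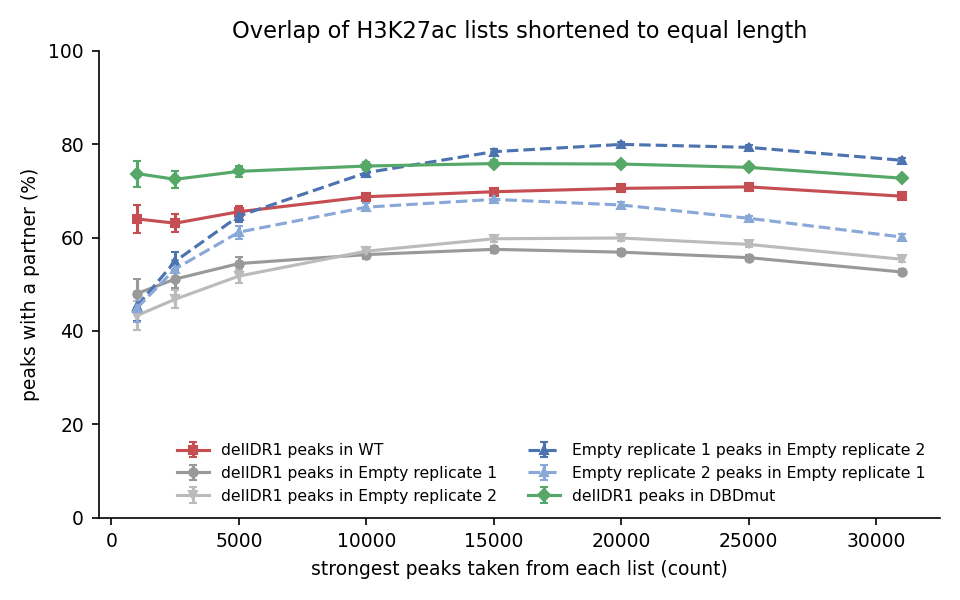
Share of peaks with an overlapping peak in the other list (y axis, percent) against the number of strongest peaks taken from each H3K27ac list (x axis, count), with bars for Wilson 95% intervals. The delIDR1 list overlapped WT in 64.0% of peaks at 1000 and 68.9% at 30991, above its overlap with either Empty replicate at each length drawn. Its overlap with DBDmut was higher than that with WT at each length, with 73.7% at 1000 and 72.7% at 30991.

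Peaks without a counterpart came mainly from the weak end of each list. Strength here is the authors' own value within a list and helped decide which peaks were called, so it describes the classes and tests nothing. WT only peaks had a median fold enrichment over local background of 4.97, against 6.94 for shared WT peaks, and median widths of 232 and 453 bp. The delIDR1 only peaks had a median fold of 4.77 and shared delIDR1 peaks 5.95. Peaks wider than 1000 bp were almost all shared: there were 2099 in the shared class of the WT list and 52 in the WT only class. From the strongest to the weakest 20% of the WT list, 93.3%, 70.3%, 48.8%, 30.3% and 16.3% of peaks were shared with delIDR1. In the delIDR1 list the share found in WT went from 99.2% in the strongest band over 85.5% in the middle one to 51.2% in the weakest. Over the 22945 pairs in which 1 peak met exactly 1 other, ranks in the 2 lists had a Spearman rho of 0.68. It is given without a test since peaks are not independent, and whether both ranks follow a common local background was not tested.

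**Figure D2:**
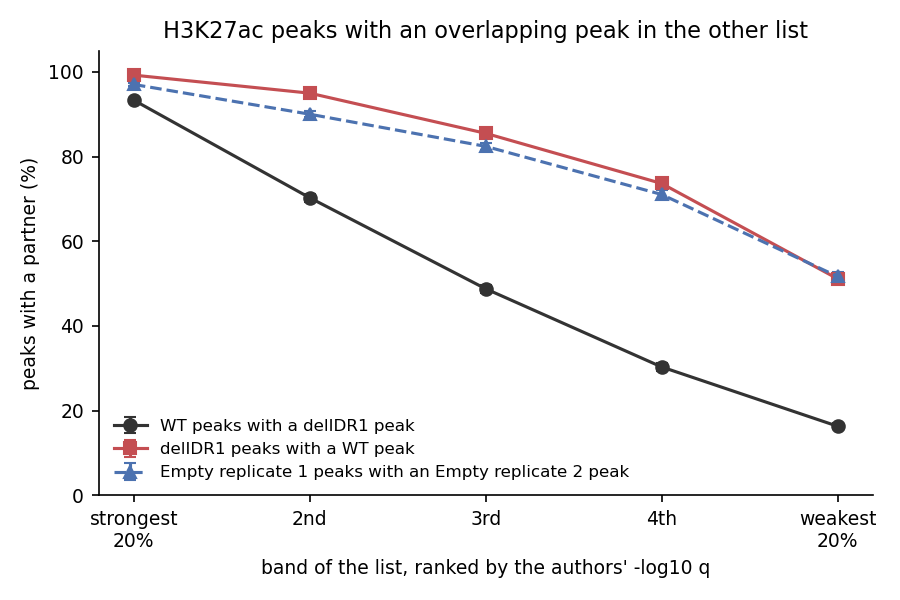
Share of peaks with an overlapping peak in the other list (y axis, percent) by band of strength in the own list (x axis, bands of 20% by the authors' -log10 q), for WT, delIDR1 and, as a pair of libraries of the same construct, Empty replicate 1. Bars are Wilson 95% intervals. The WT line runs from 93.3% to 16.3%, the delIDR1 line from 99.2% to 51.2%, and that of Empty replicate 1 from 97.0% to 51.7%. The lists searched differ in length: 49682 WT peaks for delIDR1 and 90766 peaks of the deeper replicate 2 for Empty replicate 1. With 30991 peaks in each list, the shares were 68.9% for delIDR1 in WT and 76.6% for Empty replicate 1 in replicate 2.

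Strong unmatched peaks were more numerous in WT, which also has the longer list and the higher estimated depth. The strongest 20% of the WT list held 664 WT only peaks, and the strongest 20% of the delIDR1 list held 47 delIDR1 only peaks. Unmatched peaks of this band were less often found in the other lists than the band as a whole. Of the 664, 315 (47.4%) had no H3K27ac peak in either Empty replicate, against 19.3% of all 9936 peaks of the band. DBDmut had 475 of them (71.5%), CBR 40.4% and DDX4 41.7%, against 96.3%, 78.3% and 81.5% of the band. No other H3K27ac list had 100 of them (15.1%). A WT SMARCA4 or SMARCC1 peak lay on 410 (61.7%) and a delIDR1 one on 95 (14.3%), against 82.8% and 53.8% of the band. Of the 47 delIDR1 only peaks, 22 (46.8%) were in both Empty replicates and 10 (21.3%) in neither, against 79.9% and 12.3% of the 6198 peaks of that band. DBDmut had 38 of the 47 (80.9%), against 98.9% of the band, and 1 was in no other H3K27ac list. WT peaks lay less than 10 kb from 40 of them.

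Presence in Empty cells separated shared from unmatched peaks, and was not used to define them. Over the whole lists, 42.1% of WT peaks had an H3K27ac peak in Empty replicate 1, 57.0% had one in replicate 2, and 39.9% had one in neither. Among shared WT peaks the shares were 61.8% (61.2 to 62.4) for replicate 1 and 71.2% (70.7 to 71.8) for replicate 2. Among WT only peaks they were 20.9% (20.4 to 21.4) and 41.7% (41.1 to 42.3). Neither replicate had a peak at 6555 shared peaks (25.5%) and 13261 WT only peaks (55.4%). Of the 19816 WT peaks absent from both Empty replicates, delIDR1 shared 33.1% (32.4 to 33.7), and of the 19373 present in both it shared 77.7% (77.2 to 78.3).

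In the delIDR1 list, whose peaks had an H3K27ac peak in Empty replicate 1 in 54.8% of cases, in replicate 2 in 64.8% and in neither in 31.1%, the split was alike. Among delIDR1 only peaks 23.8% (22.8 to 24.9) were in replicate 1 and 36.1% (34.9 to 37.4) in replicate 2. Among shared delIDR1 peaks 62.1% and 71.6% were. The 5918 delIDR1 only peaks thus comprised 907 peaks found in both Empty replicates (15.3%), 1735 found in 1 of them (29.3%) and 3276 found in neither (55.4%). Peaks seen in Empty replicate 1 but not in replicate 2 made up 8.50% of delIDR1 only peaks, against 1241 of all 30991 delIDR1 peaks. They made up 2.90% of WT only peaks, near the 3.11% of the whole WT list. Counting a peak as present in Empty when either replicate had it gave 44.6% for both unmatched classes, which fell to 20.9% for WT only and 23.8% for delIDR1 only peaks without the deeper replicate 2.

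**Figure D3:**
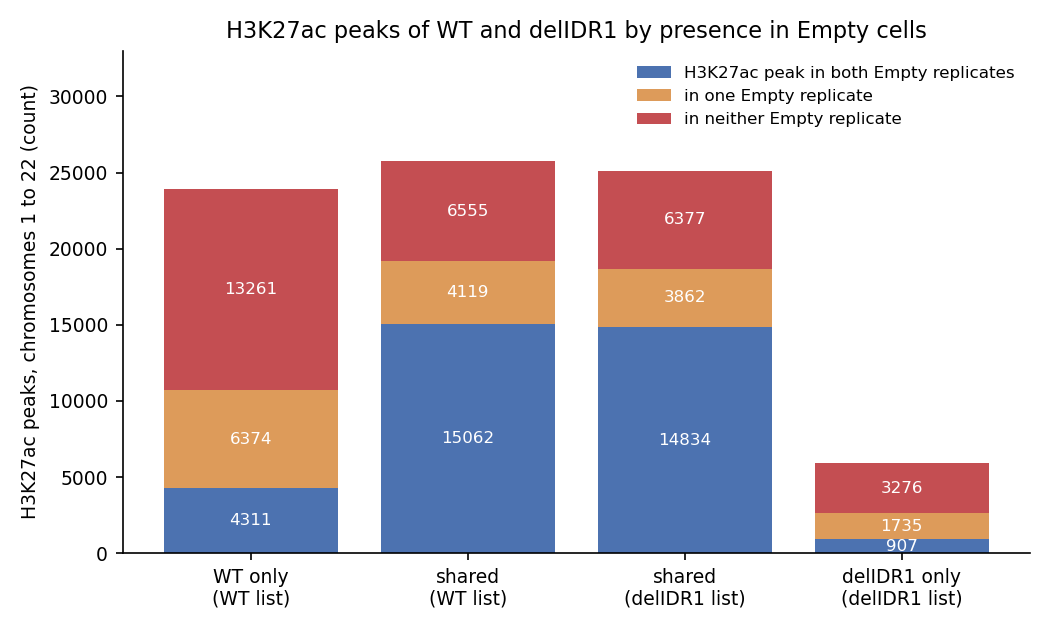
Number of H3K27ac peaks on chromosomes 1 to 22 (y axis, count) in each class (x axis), divided by whether both, 1 or neither of the Empty replicates had an overlapping H3K27ac peak. Shared peaks are drawn once from each list. Peaks in neither replicate form most of the WT only (13261) and delIDR1 only (3276) classes, and peaks in both form most of the shared class (15062 in the WT list).

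The gap between shared and unmatched peaks in Empty presence was also seen within bands of strength. The classes were not matched in strength inside a band. In the strongest 20% of the WT list, Empty replicate 1 had 75.9% of shared and 44.0% of WT only peaks. In the weakest 20% it had 30.7% and 10.4%. In the delIDR1 list these values were 81.8% and 63.8% in the strongest band, where only 47 peaks were unmatched, and 35.1% and 15.7% in the weakest. Read the other way, delIDR1 shared 96.3% of the strongest WT peaks when both Empty replicates had them and 83.5% when neither had. In the weakest band it shared 35.8% and 12.0%.

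SMARCA4 or SMARCC1 of the same construct lay on shared acetylated peaks far more often than on unmatched ones. In WT, 38.2% of all H3K27ac peaks carried a SMARCA4 or SMARCC1 peak of WT, found on 14308 shared peaks (55.6%) and 4646 WT only peaks (19.4%, 18.9 to 19.9). In delIDR1, 29.2% of all H3K27ac peaks carried a subunit peak of delIDR1, with 34.5% (33.9 to 35.1) of shared and 6.62% (6.02 to 7.29) of delIDR1 only peaks. SMARCC1 peaks were the more frequent throughout: in WT they lay on 52.9% of shared and 16.6% of WT only peaks, and SMARCA4 on 30.3% and 8.53%. The SMARCC1 lists were also the longer, with 23364 against 12720 peaks in WT and 10273 against 7011 in delIDR1. The part of list length in this order was not tested. Both subunits were on 27.7% of shared WT peaks, 5.72% of WT only peaks and 1.32% of delIDR1 only peaks. The difference was present within bands of strength: 84.3% of shared and 61.7% of WT only peaks had a WT subunit in the strongest 20% of the WT list, and 15.5% and 7.11% in the weakest. The WT shares depended on the length of the lists: with subunit lists of equal length, a setting chosen after seeing the data, they were 34.2% of shared and 7.20% of WT only peaks, and with H3K27ac lists of equal length the WT only share was 32.9%. The delIDR1 only share was 10.3% with peaks matched by summits.

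On delIDR1 only peaks, the longer WT subunit lists gave more peaks (9.89%) than those of delIDR1 (6.62%), while over the whole delIDR1 list a WT subunit lay on 47.4% of peaks. The Empty replicates had a subunit on 7.64% and 8.77% of delIDR1 only peaks, against 28.1% and 33.9% of the whole delIDR1 list. With subunit lists of equal length the order of WT and delIDR1 turned, to 1.80% (1.40 to 2.32) in WT and 5.34% (4.62 to 6.17) in delIDR1 where Empty had no H3K27ac, and to 7.39% and 11.5% where both replicates had it.

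At shared peaks that Empty lacked, subunit peaks were fewer in delIDR1 than in WT, as they also were over the whole WT H3K27ac list, where a delIDR1 subunit lay on 19.3% of peaks. Of the 6555 shared peaks absent from both Empty replicates, a WT SMARCA4 or SMARCC1 peak lay on 3614 (55.1%, 53.9 to 56.3) and a delIDR1 one on 1325 (20.2%, 19.3 to 21.2). The Empty libraries had a subunit peak on 0.748% and 0.793% of them. At the 15062 shared peaks that both Empty replicates had, the shares were 60.1% in WT and 44.4% in delIDR1, beside 52.7% and 63.5% in the Empty replicates. The WT subunit lists are longer than those of delIDR1, so both were also shortened to the lengths of the delIDR1 lists, 7011 SMARCA4 and 10273 SMARCC1 peaks. Then WT had a subunit on 30.1% (29.0 to 31.2) of the shared peaks absent from Empty and delIDR1 still on 20.2%. Lists of equal length hold equal numbers of peaks, so a higher share in 1 class goes with lower shares elsewhere. On the shared peaks of both Empty replicates the order turned, with 39.7% (39.0 to 40.5) in WT and 44.4% (43.6 to 45.2) in delIDR1. At WT only peaks WT was above delIDR1 where Empty had no peak, at 7.85% against 1.49%. Where both replicates had one, 431 and 475 of 4311 peaks carried a subunit, with overlapping intervals.

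Bands of H3K27ac strength were also compared, with the full subunit lists. Over all bands a WT subunit lay on 55.1% of shared peaks that Empty lacked and on 60.1% of those in both replicates. Within the strongest and the weakest band the WT order was the reverse. In the strongest 20% of the WT list, a WT subunit lay on 90.4% (88.9 to 91.8) of shared peaks that Empty lacked and on 82.7% (81.8 to 83.6) of those in both replicates. In the strongest 20% of the delIDR1 list, the delIDR1 subunits had the opposite order, with 63.8% (60.4 to 67.2) and 71.7% (70.4 to 72.9). In the weakest band the WT shares were 19.9% and 17.0% and the delIDR1 shares 5.47% and 11.5%.

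**Figure D4:**
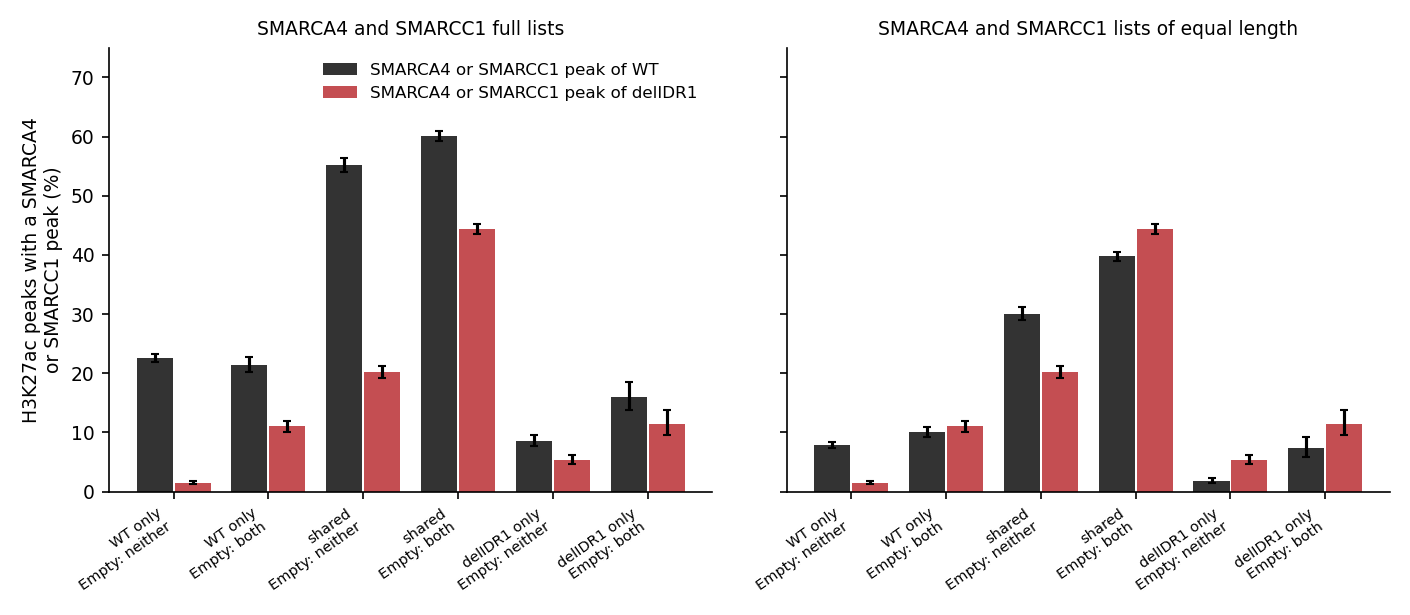
Share of H3K27ac peaks with a SMARCA4 or SMARCC1 peak of WT or of delIDR1 (y axis, percent) for each class, divided by whether neither or both Empty replicates had H3K27ac there (x axis), with the full subunit lists on the left and lists of equal length on the right. Bars are Wilson 95% intervals. At shared peaks with lists of equal length, WT is above delIDR1 where Empty had no peak (30.1% and 20.2%) and below it where both replicates had one (39.7% and 44.4%).

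Peaks of a subunit in WT were also followed into delIDR1 within bands of WT subunit strength. Among shared acetylated peaks with a WT SMARCC1 peak, delIDR1 also had SMARCC1 at 841 of 3362 peaks (25.0%, 23.6 to 26.5) absent from both Empty replicates and at 5301 of 8725 (60.8%, 59.7 to 61.8) present in both. In the strongest 20% of the WT SMARCC1 list these shares were 54.8% and 88.4%, and in the weakest 20% they were 9.47% and 23.1%. For SMARCA4 they were 30.7% and 59.8% over all bands, and 56.8% and 86.0% in the strongest band. At WT only peaks absent from Empty, where delIDR1 lacked the acetylation, SMARCC1 was kept at 3.60% and SMARCA4 at 4.18%, and at 17.8% and 19.3% in the strongest bands. The delIDR1 subunit was thus found less often at Empty-absent than at Empty-present peaks in each of the 5 bands of both subunits, within shared peaks and within WT only peaks. All these peaks were picked by a WT subunit call. The Empty replicates had a subunit on 0.748% and 0.793% of shared Empty-absent peaks, against 52.7% and 63.5% of those in both. Empty-absent peaks thus rested mostly on the WT call. The part of this selection, and of the shallower delIDR1 subunit libraries, was not tested.

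**Figure D5:**
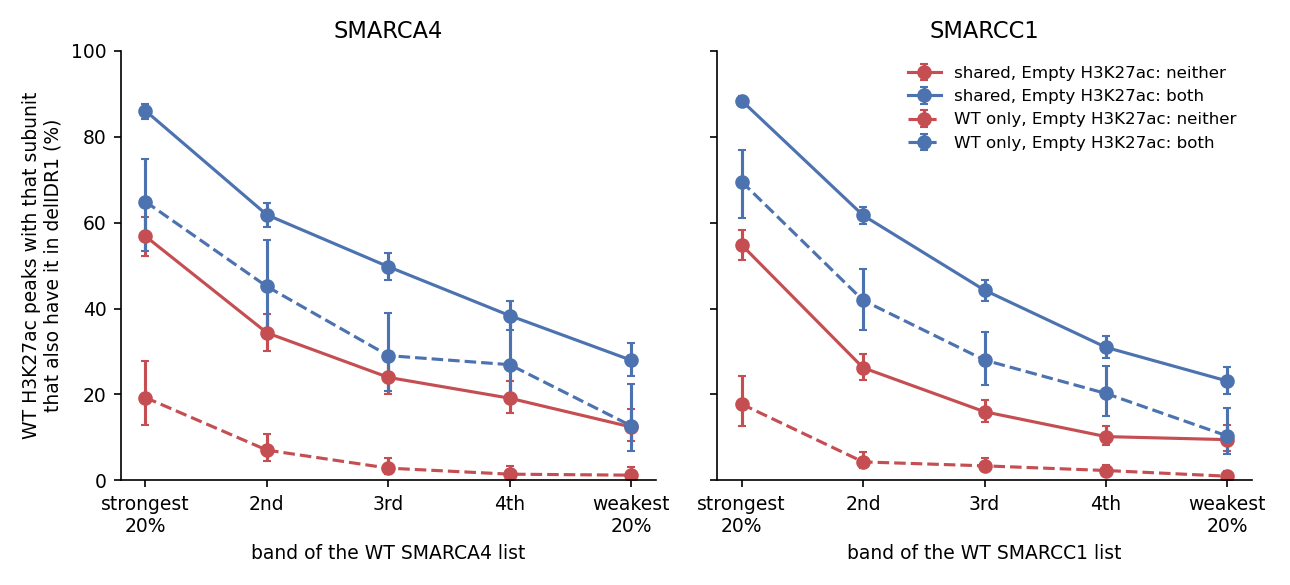
Share of WT H3K27ac peaks carrying a WT subunit peak that also had a delIDR1 peak of that subunit (y axis, percent), by band of 20% of the WT subunit list (x axis), for SMARCA4 (left) and SMARCC1 (right). Colours divide peaks by H3K27ac in neither or both Empty replicates, solid lines are shared and dashed lines WT only peaks, and bars are Wilson 95% intervals. In the strongest SMARCC1 band the shared peaks stand at 88.4% (both) and 54.8% (neither).

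Much of the acetylation in every class lay away from any called subunit. Neither construct had SMARCA4 or SMARCC1 at 10398 shared peaks (40.4%), 19054 WT only peaks (79.6%) and 5121 delIDR1 only peaks (86.5%). Over the whole WT list, a WT subunit lay on 38.2% of peaks and a delIDR1 one on 19.3%. Over the whole delIDR1 list the shares were 47.4% and 29.2%. The delIDR1 lists held only 7011 SMARCA4 and 10273 SMARCC1 peaks, and a missing call does not show that the subunit was absent. At shared peaks absent from Empty, 2436 (37.2%) had a subunit in WT alone, 1178 (18.0%) in both constructs, 147 (2.24%) in delIDR1 alone and 2794 (42.6%) in neither construct. At delIDR1 only peaks absent from Empty, 203 (6.20%) had a subunit in WT alone although WT had no H3K27ac peak, and 98 (2.99%) had one in delIDR1 alone.

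Unmatched peaks lay at varied distances from acetylation in the other construct. The nearest delIDR1 peak was less than 1 kb from 4191 WT only peaks (17.5%), 1 to 10 kb from 7179 (30.0%), 10 to 100 kb from 10835 (45.2%) and 100 kb or more from 1741 (7.27%), with a median of 11.1 kb. The median distance was 15.6 kb for WT only peaks absent from both Empty replicates and 2.77 kb for those in both. The delIDR1 only peaks lay closer to WT peaks, at a median of 5.30 kb, although the WT list is also the denser. The shares under 1 kb were 19.7% for delIDR1 only peaks absent from Empty and 32.6% for those in both replicates.

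Peaks of a list were also joined into regions across the short gaps customary for super-enhancers. Isolated WT peaks were WT only in 54.7% of 13449 cases, and peaks in regions of 5 or more in 40.5% of 13507 cases. In the delIDR1 list the delIDR1 only share varied little, with 20.5% of isolated peaks, 17.4% in regions of 2 to 4 peaks and 19.9% in regions of 5 or more. Of the 1716 WT regions of 5 or more peaks, only 29 consisted of WT only peaks throughout. The region with the most WT only peaks was chr5:141659687-141854764, with 21 of its 44 peaks unmatched, close to the 48.2% of the whole list, and 25 of the 44 in Empty replicate 1 and 34 in DBDmut. A region picked after its values were seen, chr1:172853033-172949875, had 19 of 26 peaks unmatched, none in Empty replicate 1, 4 in Empty replicate 2 and 17 in DBDmut, with a WT subunit on 13. For delIDR1, the region with the most delIDR1 only peaks was chr4:30743622-30884364, tied with chr4:42334125-42522069 at 11, with 11 of 31 unmatched, 22 of the 31 in Empty replicate 2 and 23 in DBDmut.

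The classes were spread over all 22 chromosomes with modest differences. WT only peaks made up 39.4% (37.2 to 41.6) of WT peaks on chromosome 19, the lowest share, and 52.8% (49.4 to 56.2) on chromosome 18, the highest. The delIDR1 only share was also lowest on chromosome 19, at 11.3% (9.71 to 13.2), and highest on chromosome 4, at 24.0% (21.9 to 26.2). Chromosome 19 had 26.6% of its WT peaks in the strongest band of the list. Within that band its WT only share was 5.88% (4.15 to 8.27), against 6.73% (6.24 to 7.25) on the other chromosomes, and within the weakest band 83.0% against 83.7%. In the second band it was lower, at 24.3% (20.5 to 28.5) against 30.0% (29.1 to 30.9). The delIDR1 only share of the weakest delIDR1 band was 38.5% (31.7 to 45.8) on chromosome 19 and 49.2% (47.9 to 50.4) elsewhere.

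Single peaks show how the unmatched classes look, with folds that belong to their own lists. The strongest WT only peak, chr13:110076507-110076679, had a fold of 26.5 in WT, with H3K27ac folds of 28.1 and 29.5 in the Empty replicates. It had no H3K27ac peak in delIDR1, yet SMARCA4 had a fold of 63.2 there in WT and 52.8 in delIDR1. These were the highest folds of their own lists, and SMARCC1 of delIDR1 also had its highest fold there, 48.0. CBR had H3K27ac there with a fold of 17.8. Whether this peak is an artefact was not tested. Regions prone to artefacts were not removed, and the 5 strongest shared peaks, led by chr1:121484083-121485424 at rank 1 of WT, delIDR1 and both Empty lists, were in every H3K27ac list. Among WT only peaks absent from Empty, chr17:78830299-78830555 had a fold of 12.6 in WT and 9.83 in DBDmut, no subunit peak in WT or delIDR1, and a delIDR1 H3K27ac peak 2.54 kb away. At chr20:10600153-10600591 the WT fold was 19.5, the DBDmut fold 9.32, and SMARCA4 and SMARCC1 had WT folds of 11.6 and 6.09, with no delIDR1 peak of either subunit. The peak chr20:19796139-19796511, with a fold of 18.5 in WT and 8.67 in DBDmut, and the peak chr11:66659561-66659988, with 17.0 and 10.1, carried no subunit peak of WT or delIDR1. Of the 5 strongest WT only peaks, 2 had H3K27ac in Empty replicate 2 alone of the Empty lists. At chr17:30048515-30049982, 1468 bp wide, the WT fold was 12.1, WT SMARCC1 had a fold of 4.61, and the nearest delIDR1 peak was 31.4 kb away. At chr16:73102808-73103194 the WT fold was 11.9, the WT subunit folds were 8.44 (SMARCA4) and 8.18 (SMARCC1), and DBDmut, CBR and DDX4 also had H3K27ac. At chr3:184037765-184038127 the WT fold was 11.9, WT SMARCC1 had a fold of 10.1, and CBR and DDX4, but not DBDmut, also had H3K27ac.

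Of the 5 strongest shared peaks absent from Empty, all but the last below had both subunits in both constructs. At chr10:97211488-97212143 the H3K27ac fold was 19.6 in WT and 15.7 in delIDR1, at ranks 67 and 40 of their lists, and SMARCA4 and SMARCC1 had delIDR1 folds of 15.1 and 19.3. At chr5:55971655-55972704 the H3K27ac folds were 12.7 and 11.2 and the delIDR1 subunit folds 25.1 and 19.4. The peaks chr10:45476720-45477314 and chr6:3911778-3914664, the latter 2887 bp wide, were the others with all of these subunit peaks. At chr5:133389140-133390309, ranked 448 in WT and 216 in delIDR1, delIDR1 had SMARCC1 but no SMARCA4 peak. All 5 had H3K27ac in DBDmut and DDX4.

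The strongest delIDR1 only peaks were mostly seen in other constructs too. The first, chr4:31114151-31114689, had a fold of 9.53, subunit folds of 11.3 (SMARCA4) and 10.7 (SMARCC1) in delIDR1, and H3K27ac in Empty replicate 2, DBDmut and DDX4. WT had SMARCC1 there, with a fold of 7.63, and its nearest H3K27ac peak was 3.17 kb away. The peak chr2:112102119-112102577, with a fold of 5.60, also had both delIDR1 subunits and lay 1.15 kb from a WT peak. The other 3 had no subunit in either construct. Of these, chr7:20309-21018 (fold 10.5) had H3K27ac in DBDmut, CBR and DDX4, chr5:70837494-70838059 (fold 12.9) had it in CBR and DDX4, and chr7:75791981-75792390 (fold 6.42) was in no other H3K27ac list. Both remaining peaks of those absent from Empty, chr7:65241928-65242736 and chr1:21443927-21444533, had no subunit and were also in DBDmut.

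DBDmut, whose 38153 H3K27ac peaks came from a library of 4.65 fragments per kb with the stamp of WT, shared more of the WT list than delIDR1 did, and no test of this difference was possible. It had 60.8% of WT peaks (60.3 to 61.2), against 51.8% for delIDR1. Both mutants had 22517 WT peaks (45.3%), DBDmut alone 7673 (15.4%), delIDR1 alone 3219 (6.48%) and neither 16273 (32.8%). With lists of 30991 peaks, 73.4% of WT peaks were in DBDmut and 69.3% in delIDR1, and 72.7% of delIDR1 peaks were in DBDmut. Of the shared peaks that Empty lacked DBDmut had 74.2%, and of the WT only peaks that Empty lacked it had 24.6%. CBR, which had 42.7% of the WT list, had 1002 (15.3%) and 530 of these, and DDX4, with 49.0% of the WT list, had 1000 (15.3%) and 498 (3.76%). In the delIDR1 list, DBDmut had 77.8% of all peaks, CBR 54.1% and DDX4 62.0%. Of the delIDR1 only peaks that Empty lacked they had 25.4%, 4.88% and 7.57%, and of the shared delIDR1 peaks that Empty lacked 74.5%, 15.5% and 15.3%. Of all WT only peaks, 9342 (39.0%) were in no other H3K27ac list, as were 2194 delIDR1 only peaks (37.1%).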

How the data were processed

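CUT&Tag peak lists of 15 of the 22 libraries were used: 7 for H3K27ac, and SMARCA4 and SMARCC1 for WT, delIDR1 and Empty. Groups come from sample titles. Per the submitters' processing notes, hg19 and bcl2fastq were used; the aligner, the peak caller, duplicate treatment and control were not stated there or in the labels. Each deposited list has 10 columns per peak, with a fold enrichment (a ratio to local background), -log10 p and -log10 q values and a score. The deposited -log10 q was at least 2.00 in each list, and the authors' score was 10 times it, rounded down, except at up to 3 peaks of a list.

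From these, overlaps of at least 1 bp on chromosomes 1 to 22 were counted, with Wilson 95% intervals and no test. Ranks follow -log10 q within a list. Relative depth is the lowest background implied by fold and p, divided by the shortest peak, for peaks with -log10 p under 60. The total fragment number is unknown. Named peaks are the 5 strongest of each class whatever their presence in Empty, and the 5 strongest of each class absent from both Empty replicates. Some peaks are in both sets. Named regions include the one richest in unmatched peaks of each list. The comparison, rules and settings were chosen with earlier results of these data known. Alternatives were a -log10 q of at least 5, H3K27ac lists of equal length, a required overlap covering 50% of the smaller peak, matching by summits no more than 250 bp apart, joining peaks under 1 kb apart, adding chromosome X, leaving out either Empty replicate, other subunit rules and, added later, subunit lists of equal length. The overlap code was tested on simulated data, as was the step of the depth code that recovers the fragment count behind fold and p. The relative depth itself was not tested in this way. Python 3.11.15, numpy 2.4.6, scipy 1.17.1, pandas 2.3.3 and matplotlib 3.10.9 were used.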

Additional observations from a re-analysis of the deposited data

How the results depend on the processing

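The share of WT peaks without a delIDR1 peak and that of delIDR1 peaks without a WT peak were 44.8% and 15.9% with a -log10 q of at least 5, 50.4% and 22% with an overlap of 50% of the shorter peak, 54.7% and 27.4% with summits within 250 bp, and 45.4% and 18.1% with peaks under 1 kb apart joined. With H3K27ac lists of equal length they were 30.7% and 31.1%, nearly equal by the construction of that setting. Presence in either Empty replicate, for WT only and delIDR1 only peaks, was 43.7% and 48.9% with the higher -log10 q, 39.7% and 38.9% with equal lengths (71.0% for shared peaks), 41.7% and 39.4% with the 50% overlap, and 39.8% and 42.5% with joined peaks. With the summit rule it was 42.1% for WT only and 71.2% for shared peaks. For WT only, shared and delIDR1 only peaks it was 41.7%, 71.2% and 36.1% without Empty replicate 1, and 20.9%, 61.8% and 23.8% without Empty replicate 2. The WT subunit share of WT only and shared peaks was 32.9% and 62.7% with equal H3K27ac lengths, 18.1% and 56.2% with the 50% overlap, 20.3% and 54.6% with summits, 22.3% and 61.8% with joined peaks, and 7.20% and 34.2% with subunit lists of equal length. It was 53.8% for shared peaks with the higher -log10 q. The delIDR1 subunit share of shared delIDR1 peaks was 31.6% with the higher -log10 q, 38.6% with equal H3K27ac lengths, 33.2% with summits and 37.5% with joined peaks, and that of delIDR1 only peaks 8.17% with equal H3K27ac lengths and 10.3% with summits. With SMARCA4 alone required, the subunit shares of WT only, shared (WT list), delIDR1 only and shared (delIDR1 list) peaks were 8.53%, 30.3%, 2.79% and 20.6%, with SMARCC1 alone 16.6%, 52.9%, 5.15% and 29.8%, and with both 5.72%, 27.7%, 1.32% and 15.9%. Shared peaks (of the WT list for Empty presence) stayed above unmatched ones in Empty presence and in subunit presence under each of these settings, and adding chromosome X moved no share beyond its interval. The cause of each shift was not tested. The part of depth in the calls at the weak end of each list was not tested. No paired analysis was possible because replicate numbers exist for Empty alone.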
